A study of Mus musculus with 15 samples.

Results

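The genes described here are those of immunoglobulin M and of the B lymphocytes that make it. They are Ighm, the constant region of the mu heavy chain, Igkc, the constant region of the kappa light chain, Jchain, which joins IgM units into polymers, Cd79a and Cd79b, which carry the signal of the B cell receptor into the cell, and Ms4a1, which encodes the surface protein CD20. They were chosen by name, as 6 of the 55487 genes in the count table, after earlier results of the same libraries were known, so their own levels are given as a description and without p-values.

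Bulk RNA came from snap-frozen forebrains of wild-type mice, as 15 libraries in 5 groups of 3, in a series on macrophages that arise from blood and skull marrow monocytes and settle in the brain. The groups were untreated brains (NT), brains given what the labels call PLX 1x (PLX1X), brains with PLX3X in the library name followed by CD0 (PLX3X_CD0) or CD30 (PLX3X_CD30), and brains labelled IR-BMT (IR_BMT). All groups share the wild-type genotype, and the labels used here give no age, no explanation of PLX, CD0, CD30 or IR-BMT, and only "PLX" in the titles of the PLX3X_CD30 libraries. Nothing in them ties each library to an animal of its own, and a p-value here reflects library-to-library spread that may be technical.

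IgM is the first antibody class that a B lymphocyte makes. The mu chain is built by joining V, D and J segments and splicing them to the Ighm exons, so a complete mu or kappa message carries a V segment as well as a constant region. On the cell surface the antibody sits beside the Cd79a and Cd79b proteins, while plasma cells secrete it with the J chain. In the healthy brain B lymphocytes are few and lie mostly in the meninges and vessels.

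Ighm lies on the reverse strand of chromosome 12 (mm10, bases 113418558 to 113422730), and 2 transcripts are annotated. They share their first 1305 bases and then end differently, which decides whether the antibody is secreted or held in the membrane. The ends are shown because the deposited Ighm count adds both forms and cannot say which one was present. The secreted form ends in 59 coding bases (113420870 to 113420928), and the capitals mark the codon of the next-to-last residue, a cysteine through which the tail bonds to the J chain. The membrane form ends in 122 coding bases, spliced from the stretch 113418829 to 113419068. Both are the reverse strand read 5′ to 3′ from the GENCODE release M21 transcripts.

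Secreted mu tail: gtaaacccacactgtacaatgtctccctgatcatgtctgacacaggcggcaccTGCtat

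Membrane mu tail: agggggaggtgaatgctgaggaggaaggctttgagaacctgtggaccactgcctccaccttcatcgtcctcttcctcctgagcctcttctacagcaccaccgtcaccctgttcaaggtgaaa

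Ighm was the abundant member, and it was present in every brain. It had 20887 counts over the 15 libraries, between 890 and 2002 in each. Its counts were 913, 1891 and 2002 in the NT libraries and 1561, 1631 and 1274 in the PLX1X libraries. They were 1281, 969 and 890 in PLX3X_CD0, 1590, 1509 and 1396 in PLX3X_CD30, and 1329, 1468 and 1183 in IR_BMT. The low NT count of 913 belongs to the library with the smallest total, 19249641 counts, and the largest total was 54801136. Levels are therefore given from here on as CPM, counts relative to the library total, corrected with TMM factors.

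On that scale the NT libraries held 43.5, 46.8 and 36.9 CPM of Ighm, a mean of 42.4 ± 5.05 (SD, n = 3). The PLX3X_CD0 libraries held 25.9, 18.8 and 16.6 CPM, with a mean of 20.4 ± 4.88 (SD, n = 3), and every one lay below every library of the other 4 groups. The PLX1X libraries held 28.9, 36.1 and 31.4 CPM, a mean of 32.1 ± 3.68 (SD, n = 3), all below the lowest NT library. PLX3X_CD30, at 41.5, 39.4 and 35.8 CPM, had a mean of 38.9 ± 2.84 (SD, n = 3). IR_BMT, at 41.9, 40.9 and 31.0 CPM, had a mean of 37.9 ± 6.0 (SD, n = 3). The order of the means was NT, PLX3X_CD30, IR_BMT, PLX1X and PLX3X_CD0. NT, PLX3X_CD30 and IR_BMT overlapped with one another, and PLX1X overlapped with PLX3X_CD30 and IR_BMT.

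As percentages of the NT mean, Ighm stood at 91.8% in PLX3X_CD30, 89.5% in IR_BMT, 75.8% in PLX1X and 48.2% in PLX3X_CD0. The log2 differences from NT, with the standard error (SE) of the edgeR fit, were -1.05 ± 0.16 for PLX3X_CD0 and -0.40 ± 0.16 for PLX1X. They were -0.12 ± 0.16 for PLX3X_CD30 and -0.16 ± 0.16 for IR_BMT. PLX3X_CD30 stood 0.93 ± 0.16 above PLX3X_CD0 on the log2 scale, and IR_BMT differed from PLX3X_CD30 by -0.04 ± 0.16. In bulk RNA, fewer cells that hold a transcript and less of it per cell cannot be told apart, here and in all that follows.

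PLX3X_CD0 replicate 1, the highest library of its group, also held choroid plexus RNA: the summed level of 5 choroid plexus genes was 1645.83 CPM there and 497.64 CPM in IR_BMT replicate 1, against 13.2 to 42.9 CPM in the other libraries. Without that library the Ighm difference of PLX3X_CD0 from NT was -1.26. The part of choroid plexus tissue in the Ighm level was not tested.

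**Figure D1:**
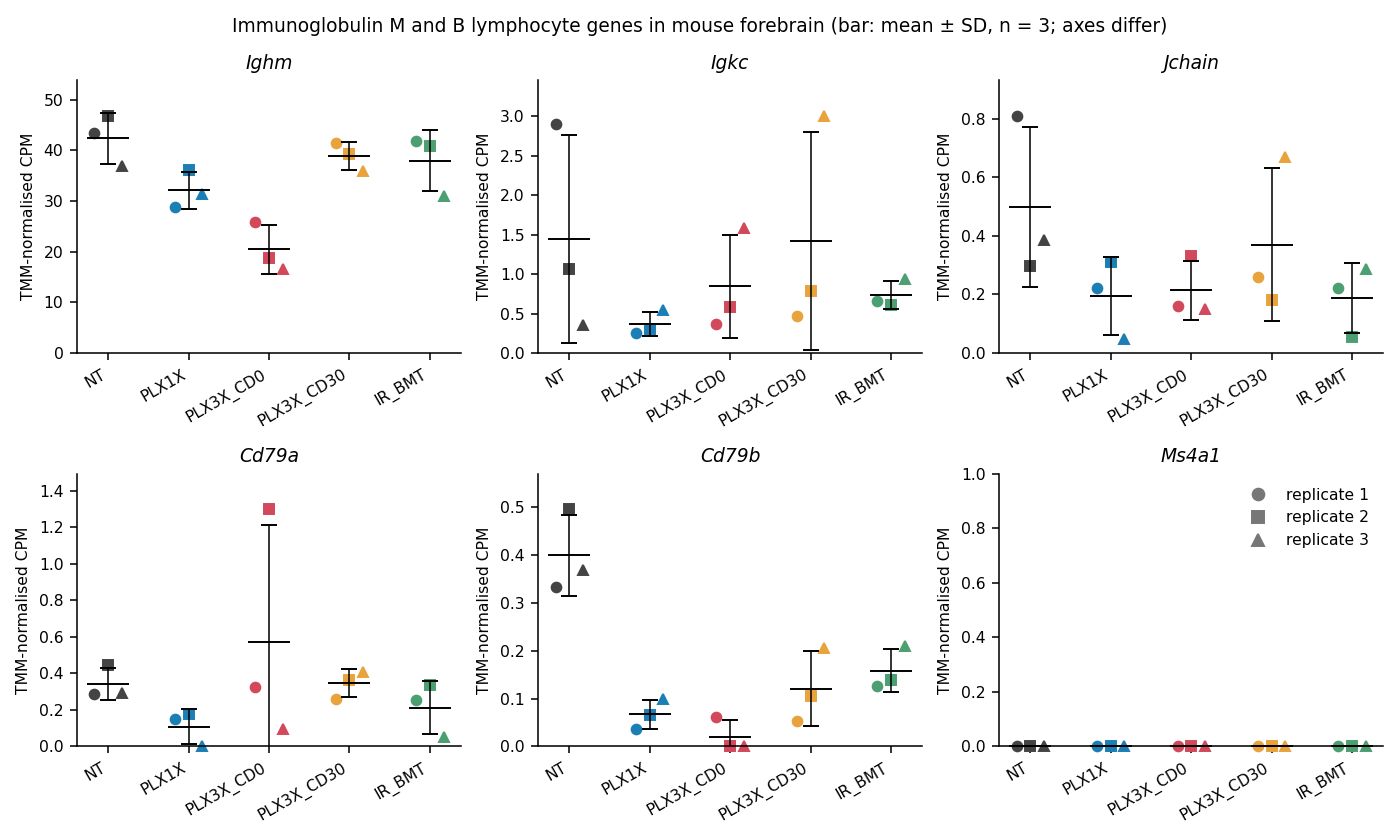
The 6 genes in each library, as TMM-normalised CPM on the vertical axis (scales differ between panels), with 5 groups along the horizontal axis. Marker shapes are replicate numbers, long bars are means and whiskers are SD over 3 libraries. Ighm is lowest in PLX3X_CD0, Cd79b is highest in NT, and Ms4a1 stays at 0. Single libraries raise the Igkc means of NT, PLX3X_CD0 and PLX3X_CD30 and the Cd79a mean of PLX3X_CD0.

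Ms4a1, whose CD20 protein marks mature B lymphocytes, was not detected in the same libraries, and Cd79a and Cd79b had few counts. Ms4a1 (chromosome 19, 11249675 to 11266241) had 0 counts in all 15 libraries, of 632626121 counts in total. By counting alone this allows a level of up to 0.00474 CPM. The gene lies inside the antisense gene 4930526L06Rik (11196817 to 11299886), on the opposite strand. Strand setting and counting rule were not given, so reads of Ms4a1 may have been dropped as ambiguous. The upper level holds only if none were, and the 0 does not show that Ms4a1 RNA was absent. Ms4a1 did not pass the filter on low counts, and the other 5 genes did.

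Cd79a (chromosome 7, 24897381 to 24902197) had 206 counts in all. Its counts were 6, 18 and 16 in NT, 8, 8 and 0 in PLX1X, 16, 67 and 5 in PLX3X_CD0, 10, 14 and 16 in PLX3X_CD30, and 8, 12 and 2 in IR_BMT. All PLX1X libraries lay below the NT libraries in CPM, and the other groups overlapped with NT. PLX3X_CD0 replicate 2 stood apart at 1.30 CPM, and it sets the group's direction: the log2 difference from NT was 0.72 ± 0.77 with it and -0.73 without it. Olfactory bulb genes were highest in that library, at a summed 268 CPM, and in NT replicate 3, at 252 CPM. They followed in IR_BMT replicate 3 at 154 CPM, IR_BMT replicate 2 at 118 CPM and PLX3X_CD30 replicate 3 at 95.8 CPM, and the other libraries held 14.5 to 75.8 CPM. In IR_BMT replicate 3 Cd79a was at 0.0525 CPM. Their part in the Cd79a level was not tested.

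Cd79b, the partner of Cd79a in the receptor, correlated with it at a Pearson r of 0.02 (Spearman rho 0.22) over the 15 libraries, as log2(CPM + 0.1). Without PLX3X_CD0 replicate 2 and PLX1X replicate 3, which lie farthest from the Cd79a median, r was 0.45. Cd79b (chromosome 11, 106311341 to 106314762) had 90 counts in all, of which 47 were in NT. Its counts were 7, 20 and 20 in NT, 2, 3 and 4 in PLX1X, 3, 0 and 0 in PLX3X_CD0, 2, 4 and 8 in PLX3X_CD30, and 4, 5 and 8 in IR_BMT. In CPM every NT library, at 0.333, 0.495 and 0.368, lay above every library of the other groups, whose highest value was 0.210. Only its NT libraries carried Cd79b past the filter on low counts, so its differences from NT are description and no support for a fall. The group means were 0.399 ± 0.0850 CPM in NT, 0.158 ± 0.0450 in IR_BMT, 0.121 ± 0.0779 in PLX3X_CD30, 0.0673 ± 0.0307 in PLX1X and 0.0203 ± 0.0351 in PLX3X_CD0 (SD, n = 3 each). The log2 differences from NT were -2.57 ± 0.72 for PLX1X, -1.71 ± 0.67 for PLX3X_CD30 and -1.32 ± 0.66 for IR_BMT (± SE). With 3 counts in PLX3X_CD0, NT was 20.9 times higher, with an exact 95% interval of 6.74 to 105 that covers counting error only. The interval takes each count as 1 fragment and is too narrow if a count is worth less.

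Igkc and Jchain, the light chain and the joining chain, differed widely between libraries of the same group. Igkc (chromosome 6, 70726435 to 70726966, inside the lincRNA gene Gm30211 on the same strand) had 550 counts. Its counts were 61, 43 and 19 in NT, 14, 14 and 22 in PLX1X, 18, 30 and 85 in PLX3X_CD0, 18, 30 and 117 in PLX3X_CD30, and 21, 22 and 36 in IR_BMT. The 3 high libraries, NT replicate 1, PLX3X_CD0 replicate 3 and PLX3X_CD30 replicate 3, stood at 2.90, 1.59 and 3.00 CPM, and the remaining 12 did not exceed 1.06 CPM. Igkc was 1.44 ± 1.32 CPM in NT and 1.42 ± 1.38 in PLX3X_CD30 (SD, n = 3). All 4 groups overlapped with NT. Leaving out NT replicate 1 moved the log2 difference of PLX1X from -1.87 to -0.90 and that of PLX3X_CD30 from 0.09 to 1.05, and leaving out PLX3X_CD30 replicate 3 turned the latter to -1.10.

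Jchain (chromosome 5, 88519809 to 88527891) had 174 counts, 2 to 26 in a library. Its means were 0.498 ± 0.274 CPM in NT, 0.370 ± 0.260 in PLX3X_CD30, 0.214 ± 0.101 in PLX3X_CD0, 0.194 ± 0.133 in PLX1X and 0.188 ± 0.120 in IR_BMT (SD, n = 3). IR_BMT was the one group whose libraries all lay below those of NT. NT replicate 1, at 0.809 CPM, and PLX3X_CD30 replicate 3, at 0.667 CPM, were the highest libraries for Jchain.

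The share of all 21780 genes tested that passed the edgeR threshold (adjusted p under 0.05) was 18.1% for PLX1X against NT (9.97% higher, 8.12% lower) and 21.7% for PLX3X_CD0 (12.2% higher, 9.53% lower). It was 6.57% for PLX3X_CD30 against NT (4.74% higher, 1.84% lower) and 30.6% for IR_BMT (15.1% higher, 15.4% lower). Between PLX3X_CD30 and PLX3X_CD0 it was 3.8% (1.87% higher, 1.93% lower), and between IR_BMT and PLX3X_CD30 it was 16.5% (7.63% higher, 8.88% lower). These shares are given for comparison with the gene lists below. Ighm, Igkc, Jchain, Cd79a, Cd79b and Ms4a1 were chosen with these contrasts known. A threshold cannot test genes chosen in that way, so their own calls are not set beside these shares.

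The 6 genes did not move as 1 set. Across the 15 libraries, on a scale of log2(CPM + 0.1), Ighm correlated with Cd79b at a Pearson r of 0.73 (Spearman rho 0.67), with Jchain at 0.21 (0.24), with Igkc at 0.07 (0.23) and with Cd79a at 0.02 (0.26). These values describe 15 libraries that share 5 treatments and carry no p. Without PLX3X_CD0 replicates 2 and 3, which lie farthest from the Ighm median, r was 0.52 for Cd79b, 0.28 for Jchain, 0.42 for Igkc and 0.50 for Cd79a. So the low values for Igkc and Cd79a rest on those libraries, in which Ighm was lowest while Igkc or Cd79a was high.

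Per kilobase of exon, the scale on which genes can be compared, the median library held 19.2 CPM of Ighm (8.80 to 24.8). In NT the mean was 22.5 CPM per kb for Ighm, 2.71 for Igkc, 0.279 for Cd79b, 0.235 for Cd79a and 0.198 for Jchain. Igkc therefore stood at 3.04% to 33.9% of Ighm per kb (median 6.12%). The level of Ighm was thus above that of its light chain in every library, by least in PLX3X_CD0 replicate 3. It was far above that of its receptor partners in every library.

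The V segments were compared in the same way. The 185 IGH V segments of the table held 0 to 46 counts in a library together (median 8). Per kb of exon they reached 0% to 17.1% of Ighm, with a median of 2.43%. The 160 IGK V segments held 6 to 55 counts and reached 29.5% to 218% of Igkc per kb, with a median of 59.2%. The kappa segments were thus near the level of their constant region, and the heavy chain segments were far below Ighm. V segments are near-identical copies that the counting could split or drop, so these sums are uncertain.

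The libraries in which V segments were high were those in which Igkc was high. In PLX3X_CD0 replicate 3 there were 85 counts of Igkc, 24 of IGH V and 32 of IGK V, and in PLX3X_CD30 replicate 3 there were 117, 46 and 48. Ighg2b, the constant region of IgG2b, held 53 and 75 counts in these 2 libraries and 2 to 18 in the other 13. NT replicate 1 held 61 counts of Igkc, 18 of IGH V and 55 of IGK V, but 2 of Ighg2b. Ighm was low in 1 of these 3 libraries and high in another. At 16.6 CPM, PLX3X_CD0 replicate 3 had the lowest Ighm level of all 15, PLX3X_CD30 replicate 3 had the lowest of its group at 35.8 CPM, and NT replicate 1 had the second highest of all at 43.5 CPM.

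**Figure D2:**
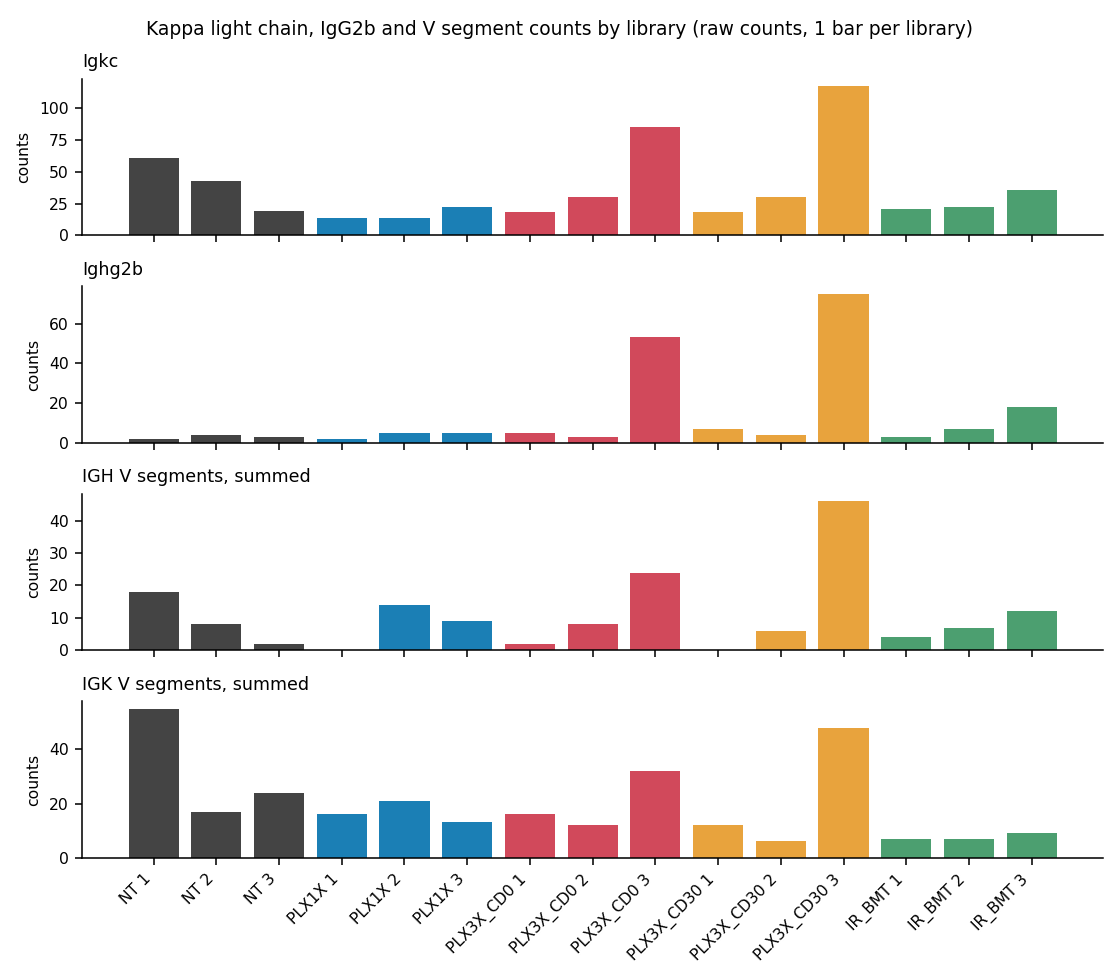
Raw counts of Igkc, of Ighg2b and of all heavy (IGH) and kappa (IGK) V segments, 1 bar per library on the horizontal axis, coloured by group. PLX3X_CD0 replicate 3 and PLX3X_CD30 replicate 3 are the tallest bars of their groups in all 4 panels, and NT replicate 1 is tall in all but Ighg2b.

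Ighm was also the highest of the 8 constant genes of its locus, which are the templates of the antibody classes. Ighg2c, 134 kb downstream, came next with a median of 3.96 CPM per kb (2.97 to 5.90 over the libraries). Ighd, the constant region of IgD that B lymphocytes express together with Ighm by splicing, had a median of 0.0966 CPM per kb. The medians of Ighg2b, Igha and Ighg1 were 0.0390, 0.0293 and 0.0107, and those of Ighg3 and Ighe were 0. Ighg2c did not pass the threshold against NT in any group (log2 differences from -0.21 ± 0.18 in PLX3X_CD0 to 0.36 ± 0.18 in PLX3X_CD30, edgeR adjusted p from 0.225 to 0.586).

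**Figure D3:**
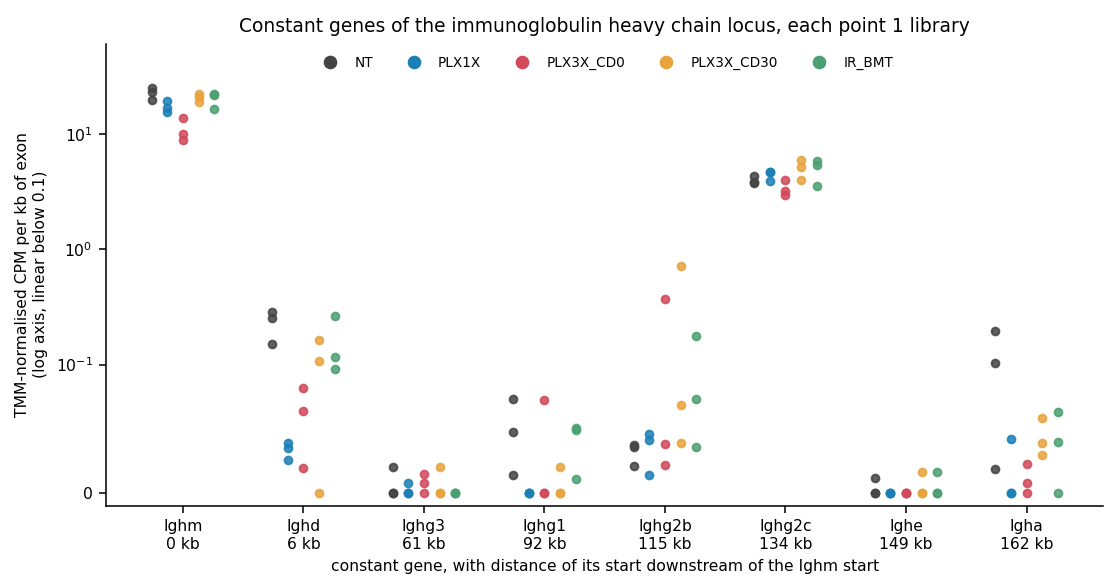
TMM-normalised CPM per kb of exon (vertical axis, logarithmic above 0.1 and linear below) for the 8 heavy chain constant genes in their order along the chromosome, 1 point per library, coloured by group. Ighm and Ighg2c lie above the other 6 in all 15 libraries, and the 3 highest Ighd points belong to 2 NT libraries and 1 IR_BMT library.

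Other genes of the B lineage were taken from 4 lists: receptor and surface genes, transcription and signalling factors, precursor genes and plasma cell genes. They hold 42 genes besides the 6, and 21 of these passed the filter. Against NT, 5 of the 21 were lower in PLX1X (8.12% of all genes were), 6 in PLX3X_CD0 (9.53%) and 4 in IR_BMT (15.4%), and none was higher. In IR_BMT the count was near the share over all genes. The median log2 difference of the 21 was -0.33 in PLX1X, -0.21 in PLX3X_CD0 and -0.26 in IR_BMT, beside -0.04, -0.03 and -0.05 over all genes. In PLX3X_CD30 none passed the edgeR threshold, with 4 at an unadjusted p under 0.05 and none with DESeq2, and the median was -0.15 beside -0.02. Between PLX3X_CD30 and PLX3X_CD0, 2 were higher (1.87% of all genes). Between IR_BMT and PLX3X_CD30, 2 were lower (8.88%), which is near the share over all genes. The 4 in IR_BMT became 2 without IR_BMT replicate 1, and PLX3X_CD30 had 1 against NT without NT replicate 1 or 2. Without any single PLX3X_CD30 library the 2 against PLX3X_CD0 became 1, and the 2 between IR_BMT and PLX3X_CD30 became 1 without IR_BMT replicate 2 or PLX3X_CD30 replicate 1 or 2.

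The genes that fell in PLX1X were Ighd, Fcrl1, Cd180, Pou2f2 and Bank1, and in PLX3X_CD0 these 5 fell together with Xbp1. Ighd fell by 2.75 ± 0.79 in PLX1X and by 2.07 ± 0.73 in PLX3X_CD0 on the log2 scale (± SE, edgeR adjusted p = 0.0193 and 0.0476). Its counts were 6, 22 and 26 in NT and 2 to 8 in these 2 groups. Cd180, a Toll-like surface receptor of B lymphocytes and myeloid cells, had 14, 29 and 27 counts in NT and 0 to 5 in PLX1X and PLX3X_CD0. It fell by 3.99 ± 0.73 and 3.91 ± 0.70 (adjusted p = 0.000814 and 0.000501).

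Fcrl1, an Fc receptor-like protein of B lymphocytes, had 6, 40 and 36 counts in NT, 2, 3 and 1 in PLX1X, and 0 in all PLX3X_CD0 libraries. Against a floor of 3 counts per library in PLX3X_CD0, NT was at least 11.1-fold higher and PLX3X_CD30 at least 2.96-fold higher. The edgeR adjusted p was 4.41e-05 for PLX3X_CD0 against NT, 0.000921 for PLX1X against NT and 0.00984 for PLX3X_CD30 against PLX3X_CD0. In PLX3X_CD30 the counts were 6, 4 and 10, and in IR_BMT 21, 10 and 10.

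Bank1, an adaptor of the B cell receptor, went from 2.71 ± 0.403 CPM in NT to 1.00 ± 0.343 in PLX1X, 1.12 ± 0.400 in PLX3X_CD0 and 1.38 ± 0.355 in IR_BMT (SD, n = 3). It passed the threshold in all 3 (adjusted p = 0.00208, 0.00363 and 0.0160). Pou2f2, a transcription factor that binds immunoglobulin promoters, fell by 0.71 ± 0.14 in PLX1X and by 0.49 ± 0.14 in PLX3X_CD0 (adjusted p = 0.00166 and 0.0153). Xbp1, which drives the secretory machinery of plasma cells and of many other cells, stood at 132 ± 12.7 CPM in NT and fell by 0.41 ± 0.09 in PLX3X_CD0 and by 0.45 ± 0.09 in IR_BMT (adjusted p = 0.00339 and 0.00104). In IR_BMT Ikzf3 and Ralgps2 fell as well, by 1.26 ± 0.37 and 0.26 ± 0.09 (adjusted p = 0.0129 and 0.0292). Xbp1 was higher in PLX3X_CD30 than in PLX3X_CD0 by 0.38 ± 0.09 (adjusted p = 0.0216). Xbp1 and Ebf1 were lower in IR_BMT than in PLX3X_CD30, by 0.43 ± 0.09 and 0.65 ± 0.18 (adjusted p = 0.00381 and 0.0209).

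Tnfrsf13b, a receptor for the B cell survival factors, was lower than NT in every group. It went from 2.04 ± 0.455 CPM in NT to 0.296 ± 0.183 in PLX1X, 0.202 ± 0.128 in PLX3X_CD0, 0.717 ± 0.102 in PLX3X_CD30 and 0.853 ± 0.393 in IR_BMT (SD, n = 3; edgeR adjusted p = 0.000315, 4.66e-05, 0.0361 and 0.0272). It was higher in PLX3X_CD30 than in PLX3X_CD0 by 1.82 ± 0.49 on the log2 scale (adjusted p = 0.0422). Of its list of 11 homing and survival genes, 7 were tested. Besides Tnfrsf13b, the ligand Tnfsf13b passed the threshold, with a fall of 1.00 ± 0.33 in PLX3X_CD0 (adjusted p = 0.0387). Of the 4 receptors and carriers of IgM, none passed the filter on low counts, and Fcmr, the Fc receptor of IgM, had 0 to 7 counts in a library.

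Signalling genes that B lymphocytes share with myeloid cells were mostly lower in PLX1X and PLX3X_CD0. Of 10 tested, 9 were lower than NT in PLX1X (8.12% of all genes were), 8 in PLX3X_CD0 (9.53%) and 3 in PLX3X_CD30 (1.84%). In IR_BMT 2 were lower (15.4%), which is near the share over all genes. In PLX3X_CD30, 6 were higher than in PLX3X_CD0 (1.87%). Their median log2 difference from NT was -1.73 in PLX1X and -1.58 in PLX3X_CD0, beside -0.04 and -0.03 over all genes. Vav1, an exchange factor downstream of immune receptors, fell by 3.40 ± 0.41 in PLX1X and by 3.97 ± 0.43 in PLX3X_CD0 (adjusted p = 5.10e-05 and 9.22e-06). Plcg2, the phospholipase of the B cell receptor and of microglial receptors, fell by 1.42 ± 0.15 and 1.66 ± 0.15 (adjusted p = 4.37e-06 and 3.65e-07).

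**Figure D4:**
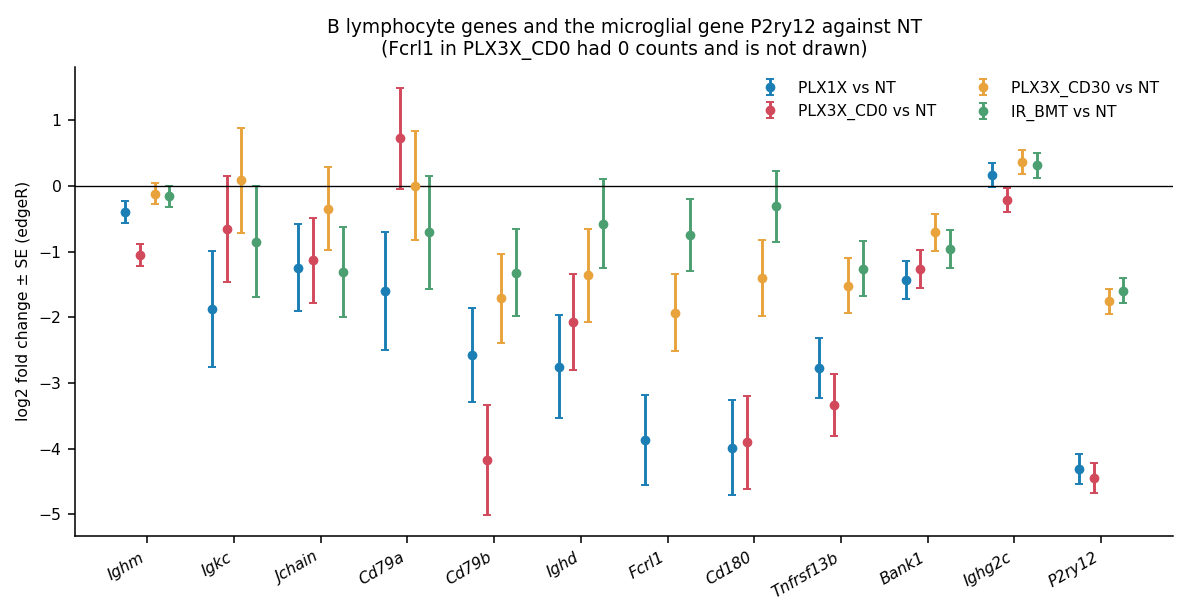
Log2 fold changes against NT (vertical axis, points with SE from edgeR) of 5 of the 6 genes, of 6 further genes of the lists and of the microglial gene P2ry12, by group. Cd79b, Ighd, Fcrl1, Cd180 and Tnfrsf13b lie lowest in PLX1X and PLX3X_CD0, as P2ry12 does, Ighm lies much closer to 0, and Fcrl1 in PLX3X_CD0 is left out because it had 0 counts.

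Markers of microglia, the resident macrophages of the brain, also differed between the groups, and their summed level had the same order of group means as Cd79b. The summed level of 9 microglial genes was 456 to 546 CPM in NT, 40.5 to 66.6 in PLX1X, 36.6 to 70.3 in PLX3X_CD0, 189 to 200 in PLX3X_CD30 and 196 to 217 in IR_BMT, and none of the 9 was at 0 in any library. Relative to the NT mean, that sum was 10.5% in PLX1X, 9.56% in PLX3X_CD0, 38.2% in PLX3X_CD30 and 40.6% in IR_BMT. Of the 9 genes, 8 were lower than NT in PLX1X and in PLX3X_CD0 and 7 in PLX3X_CD30 and IR_BMT, and 8 were higher in PLX3X_CD30 than in PLX3X_CD0. Cd79b stood at 16.9% of NT in PLX1X, 5.08% in PLX3X_CD0 (from 3 counts), 30.2% in PLX3X_CD30 and 39.7% in IR_BMT. Ighm stood at 75.8%, 48.2%, 91.8% and 89.5% in the same order. Across the 15 libraries, the mean log2 level of the 9 genes correlated with Ighm at a Pearson r of 0.79 (Spearman rho 0.81). With Cd79b it correlated at 0.84 (0.84). Without the 2 libraries farthest from the median of each gene, r was 0.79 for Ighm and 0.78 for Cd79b. The libraries fall into separate clusters on the microglial scale, so these pooled values hold the differences between groups and carry no p. The same limit applies to the r of 0.73 between Ighm and Cd79b, and Cd79b passed the filter on low counts through NT alone. The part of microglia in the Ighm and Cd79b levels was not tested.

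**Figure D5:**
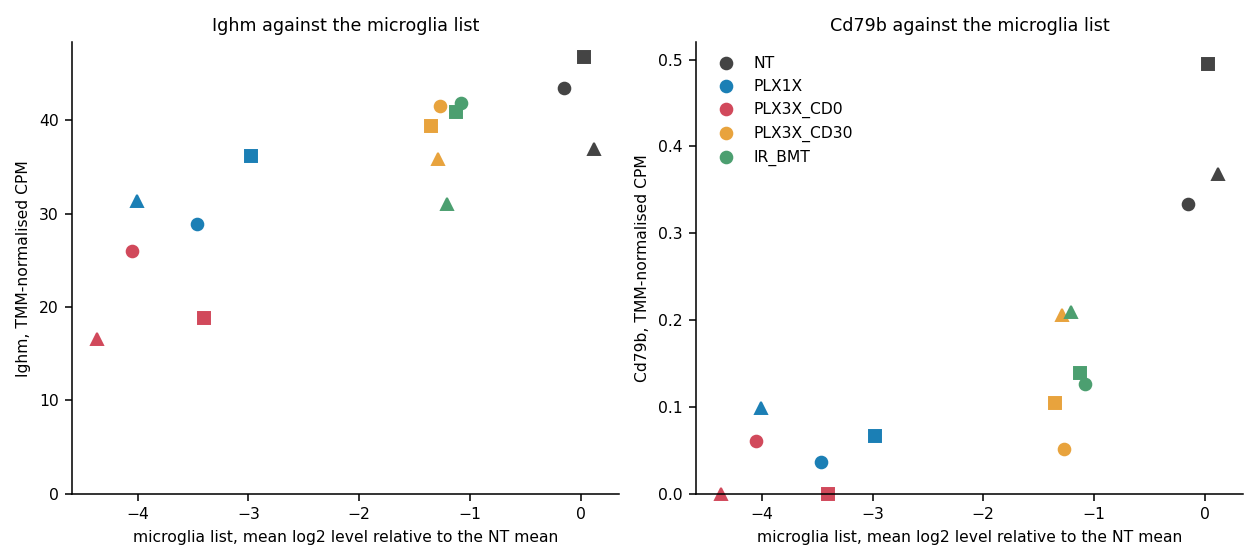
Ighm (left) and Cd79b (right) in TMM-normalised CPM against the mean log2 level of 9 microglial genes relative to the NT mean, 1 point per library, coloured by group and shaped by replicate number as in the plot of the 6 genes. The libraries form 3 clusters from left to right, PLX1X with PLX3X_CD0, PLX3X_CD30 with IR_BMT, and NT, and both genes are lower in the left cluster than in NT, Cd79b by more.

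The 5 genes whose levels were most like Ighm over the 15 libraries, by Pearson r of log2(CPM + 0.1), were 5330431K02Rik (0.888), Fam20a (0.873), Hsd11b1 (0.869), Syngr2 (0.867) and Nfic (0.867). None of them belongs to the B lineage lists. Of 21779 genes, Cd79b ranked 264, Jchain 6531, Igkc 9426 and Cd79a 10474. These values hold the differences between groups as well as those within them. Once the group means were removed, r with Ighm was 0.752 for Hsd11b1, 0.608 for Nfic, 0.593 for 5330431K02Rik, 0.537 for Fam20a and 0.322 for Syngr2. On that scale it was 0.330 for Cd79a, 0.146 for Cd79b, -0.204 for Jchain and -0.301 for Igkc, and it ran from -0.589 (Sall1) to 0.476 (Fcrls) over the 9 microglial genes. Over the 5 choroid plexus genes, whose RNA was highest in PLX3X_CD0 replicate 1 and IR_BMT replicate 1, it ran from 0.517 (Clic6) to 0.755 (Kl).

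Markers of other cells that could carry B cell or blood RNA were summed in the same way. Erythrocyte genes were 27.1 to 81.5 CPM in NT, 9.50 to 41.1 in PLX1X, 16.8 to 42.6 in PLX3X_CD0, 24.2 to 27.7 in PLX3X_CD30 and 18.6 to 35.2 in IR_BMT. Meningeal fibroblast genes ran from 53.5 to 152 CPM in NT and from 82.7 to 114 in the other groups. Neutrophil genes were at 0.911 to 3.12 CPM in all libraries, and T and NK cell genes at 40.2 to 65.7 CPM. The part of residual blood and meninges in the levels of the 6 genes was not tested.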

How the data were processed

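The authors deposited raw counts per gene and CPM for 15 forebrain libraries. The deposited CPM equalled count over library total to within 5e-07, so tests used the counts. The submitters' processing notes list DRAGEN and DESeq2, with mm10 as build, without versions. Annotation, strand setting and counting rule were not given in those sources. Of 55774 rows, 287 repeats with identical counts were removed. Between 70.6% and 74.7% of counts of 1 to 4 were even, so a count may be worth less than 1 fragment. Totals ran from 19249641 to 54801136, and intervals and floors cover counting error only, with each count taken as 1 fragment. Without strand, overlapping genes cannot be told apart.

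Groups follow the library names in the labels. No 2 libraries of a group agreed within sampling noise. Tests across genes used edgeR 4.0.16 and R 4.3.3 (all 15 libraries in 1 model, TMM, filterByExpr, which left 21780 genes, robust quasi-likelihood F-tests, Benjamini-Hochberg adjustment, threshold 0.05; biological coefficient of variation 12.1%). SE is the absolute log2 fold change divided by the square root of F. Positions and exon lengths came from GENCODE release M21. The procedure was tested on simulated counts in which only genes above 1 CPM were changed. That run does not cover the members and listed genes below this level. Replicate numbers did not pair libraries (correlation of same-numbered deviations -0.09 to 0.23, over 0.1 in 4 of 30 pairs), so no block was used.

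Members and gene lists were chosen with earlier results of these data known. Named genes were the members, up to 4 genes per list past the threshold with the smallest adjusted p, and the 5 most like Ighm. Ralgps2, Sall1, Ighg2b, Ighg2c and the other heavy chain constant genes were named after their values were seen, and so were the olfactory bulb genes. Tried as alternatives were RLE size factors, DESeq2 1.42.0, no filter, a fit on the 6 libraries compared, a replicate block, other pseudocounts, and leaving out libraries.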

Additional observations from a re-analysis of the deposited data

How the results depend on the processing

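The count of B lineage genes past the threshold against NT was 5 in PLX1X and 6 in PLX3X_CD0, and it stayed within 1.5 times of that under every alternative run (4 to 7 and 5 to 9). With the replicate block the counts were 5 in PLX1X, 6 in PLX3X_CD0, 0 in PLX3X_CD30 and 4 in IR_BMT against NT, and 2 in both other comparisons, as without it. A total of 8 of 15 libraries correlated best with their own number. Without a filter on low counts, PLX3X_CD30 had 2 genes past the threshold against NT (0 with it) and 4 against PLX3X_CD0 (2 with it), and the fit on 6 libraries gave 1 for the latter. With the 2 libraries rich in choroid plexus RNA left out, chosen after seeing the data, IR_BMT had 2 against NT (4 with them) and 1 against PLX3X_CD30 (2 with them). Leaving out each library in turn gave 2 to 5 for IR_BMT against NT (2 without IR_BMT replicate 1), 1 to 3 for IR_BMT against PLX3X_CD30 (1 without IR_BMT replicate 2, PLX3X_CD30 replicate 1 or PLX3X_CD30 replicate 2), 0 to 1 for PLX3X_CD30 against NT (1 without NT replicate 1 or 2), and 1 to 2 for PLX3X_CD30 against PLX3X_CD0 (1 without any PLX3X_CD30 library). The cause of these differences was not tested, and leaving libraries out also lowers their number. Over all alternatives Ighm was lower than NT by -0.92 to -1.26 in PLX3X_CD0 and by -0.31 to -0.49 in PLX1X on the log2 scale. Group levels of the 6 genes under raw totals or RLE factors stayed within 1 SD in 60 of 60 cases. These include the cases of Ms4a1, which at 0 counts could not move. Of the 5 genes most like Ighm, 3 were the same with a pseudocount of 0.01 CPM and 5 with 1. Depth limits the members other than Ighm, whose counts ran from 0 to 117 in a library.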

Other observations

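A T cell receptor constant gene showed a pattern of levels like that of Ighm, with a constant region far above its V segments. Trbc2, the constant region of the T cell receptor beta chain (chromosome 6, 41546730 to 41548352), had 231 to 786 counts in a library and a median of 18.3 CPM per kb, near the 19.2 CPM per kb of Ighm. The 35 TRB V segments held 0 to 8 counts in a library and reached 0% to 3.21% of Trbc2 per kb, with a median of 0.975%. Cd3e, a signalling chain of the T cell receptor complex, had 0 to 8 counts. Trbc2 did not fall in the treated groups: it was 8.75 ± 3.00 CPM in NT and 15.1 ± 1.46 in IR_BMT (SD, n = 3), a rise of 0.82 ± 0.25 on the log2 scale (± SE, edgeR adjusted p = 0.0247), and all IR_BMT libraries lay above all NT libraries. These genes were looked at after their values were seen.

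Of the 21 T and NK cell genes listed, 10 were tested. In PLX1X 1 was higher than NT (9.97% of all genes were), in PLX3X_CD0 1 was lower (9.53%) and in IR_BMT 1, Trbc2, was higher (15.1%), which is near the share over all genes in each case. Skap1, an adaptor of T lymphocytes, rose by 0.78 ± 0.23 in PLX1X against NT (adjusted p = 0.0219), and Ltb, a lymphotoxin chain, fell by 1.35 ± 0.46 in PLX3X_CD0 (adjusted p = 0.0418, edgeR).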
